A study of Homo sapiens with 12 samples.

Results

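A set of 10 genes of the response to low oxygen and of glycolysis were followed in human neural progenitor cultures: SLC2A1, SLC2A3, HK2, PFKFB4, PGK1, BNIP3, DDIT4, EGLN3, ADM and ANKRD37. The rule names them by symbol and uses no measured value, although the choice was made with earlier results of these data known, and all 10 were found among the 25718 genes of the deposited RefSeq count tables. Their average counts exceeded 10 per sample, the limit for entering the tests, as those of 11451 genes did. Each has 1 RefSeq transcript in the tables, which matters because reads shared by several transcripts of a gene appear to have been left out of the counts.

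Cells adapt to low oxygen through the hypoxia-inducible factors (HIFs), dimers of an alpha subunit and ARNT that bind hypoxia response elements with the core ACGTG or GCGTG. When oxygen is plentiful, prolyl hydroxylases mark the alpha subunits for destruction by the VHL ubiquitin ligase, and when it is scarce the subunits accumulate and raise genes of glucose uptake, glycolysis, mitophagy and growth restraint. Neural progenitors rely on glycolysis even in the presence of oxygen, and most glycolytic genes are also driven by other factors.

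The samples came from H9, an established human embryonic stem cell line, transduced at a multiplicity of infection of 50 with a lentiviral vector carrying doxycycline-regulated miR-10a or miR-10b and a GFP reporter. The cells went through 14 days of neural induction and were patterned towards ventral midbrain with CT0.8, as the labels write it, and 200 ng/ml of Shh. For each vector, 3 samples received doxycycline on days 11 to 14 (miR10a doxy and miR10b doxy) and 3 did not (miR10a NOdoxy and miR10b NOdoxy, here the controls). The experiment asked which genes respond to a short pulse of the hindbrain miRNA miR-10 in midbrain progenitors. Because the controls were the same transduced cells without the drug, and no GFP vector with doxycycline is among these samples, an effect of doxycycline itself cannot be told apart from that of miR-10. The labels do not say whether the 3 samples of a group came from separate cultures, so p-values may measure technical spread only.

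Total counts per sample were between 10545487 and 14165426, and within a vector the controls were always the deeper samples. Levels are in CPM, the count scaled to a library total of 1000000, and 3 counts, taken as the floor, corresponded to 0.212 to 0.284 CPM. The miR-10a precursor gene MIR10A was at 711 to 731 CPM in the miR-10a doxycycline samples and at 0.641 to 1.37 CPM in their controls. MIR10B was at 2541 to 2662 CPM in the miR-10b doxycycline samples and at 2.89 to 4.45 CPM in their controls, so the induced genes went with the labels. The 9 neural progenitor markers summed to between 12401 and 14252 CPM in all samples, with SOX2 at 10922 to 15972 counts. Most of this sum came from NES and VIM (means of 4595 and 4246 CPM in the miR-10a controls). SOX1 was at 52.2 ± 1.82 CPM in the miR-10a controls and at 22.2 ± 1.79 CPM in the miR-10b controls (SD, n = 3). Of the 5 pluripotency markers, POU5F1, NANOG, ZFP42 and TDGF1 had at most 2 counts and DPPA4 had 1186 to 1984. As POU5F1 (5 transcripts), NANOG (2) and TDGF1 (2) have more than 1 transcript, their counts say nothing of the level of these genes. Replicate 2 of the miR-10b doxycycline group stood apart, with a chi-square per degree of freedom of 2.92 and 3.73 against its replicates, where other pairs of replicates were between 1.2 and 1.81.

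The induced miRNA is shown because its seed decides which transcripts it can pair with. The mature miR-10a, from RefSeq (GRCh38.p14, chr17:48579904-48579926, minus strand), is printed 5′ to 3′ with the seed, bases 2 to 8, in capitals. The mature miR-10b is hsa-miR-10b-5p.
hsa-miR-10a-5p: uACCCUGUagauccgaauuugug
Of the 10 genes, PFKFB4 had an 8mer match to this seed (ACAGGGTA, the seed match of 7 bases followed by an A) in its longest 3′UTR in GENCODE 44, at position 1822 of 2063 bases (GRCh37, chr3:48555351-48555358, minus strand). The site is printed with its surroundings, the match in capitals.
PFKFB4 3′UTR: gaggactggggACAGGGTAgagggacatcc
SLC2A3, HK2, PGK1 and DDIT4 each held 1 match of 6 bases (CAGGGT) in the longest 3′UTR and no longer one, and SLC2A1, BNIP3, ADM, EGLN3 and ANKRD37 held none. The longest 3′UTR need not be that of the counted transcript. Those of PGK1 (3465 bases) and BNIP3 (2406) exceed their whole counted transcripts (2423 and 1534), so the PGK1 match may lie outside the counted one. Among the 9260 tested genes with a 3′UTR, 2.59% had an 8mer, 21.1% a match of at least 7 bases, 19.6% a match of 6 bases only and 59.3% none.

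With the miR-10b vector, 6 of the 10 genes fell after doxycycline (SLC2A1, SLC2A3, HK2, PFKFB4, PGK1 and BNIP3) and none rose, where 7.15% of all tested genes fell and 8.18% rose at an adjusted p under 0.05. With the miR-10a vector, 4 fell (SLC2A1, HK2, PGK1 and BNIP3) and none rose, where 0.742% of all tested genes fell and 0.472% rose. These calls are from edgeR's quasi-likelihood test, and no gene of the 10 was higher with either vector at an unadjusted p under 0.05 or in DESeq2. DESeq2, with its own size factors, called the same numbers of the 10 lower, but split the calls over all genes otherwise, with 808 lower and 498 higher with miR-10b (819 and 937 in edgeR) and 90 and 35 with miR-10a (85 and 54 in edgeR). The DESeq2 counts are over 7899 genes with miR-10b and 7011 with miR-10a, of which 10.2% and 1.28% were lower. With trimmed-mean (TMM) factors, edgeR called 8.41% of all tested genes lower and 6.69% higher with miR-10b, and 0.803% and 0.367% with miR-10a. The summed level of the 10 genes went from 1538 ± 30.1 to 1237 ± 17.0 CPM (SD, n = 3) with miR-10b and from 1770 ± 28.4 to 1603 ± 32.9 CPM with miR-10a. Most of this sum came from SLC2A1 and PGK1 (means of 562 and 493 CPM in the miR-10b controls, 840 and 454 CPM in the miR-10a controls). Over the 10 genes, log2 fold changes had a median of -0.30 with miR-10b and -0.14 with miR-10a, against 0.02 and 0.01 over all tested genes. In whole cultures, fewer cells of a type and less RNA per cell cannot be told apart. The plot of CPM by sample shows all values.

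**Figure D1:**
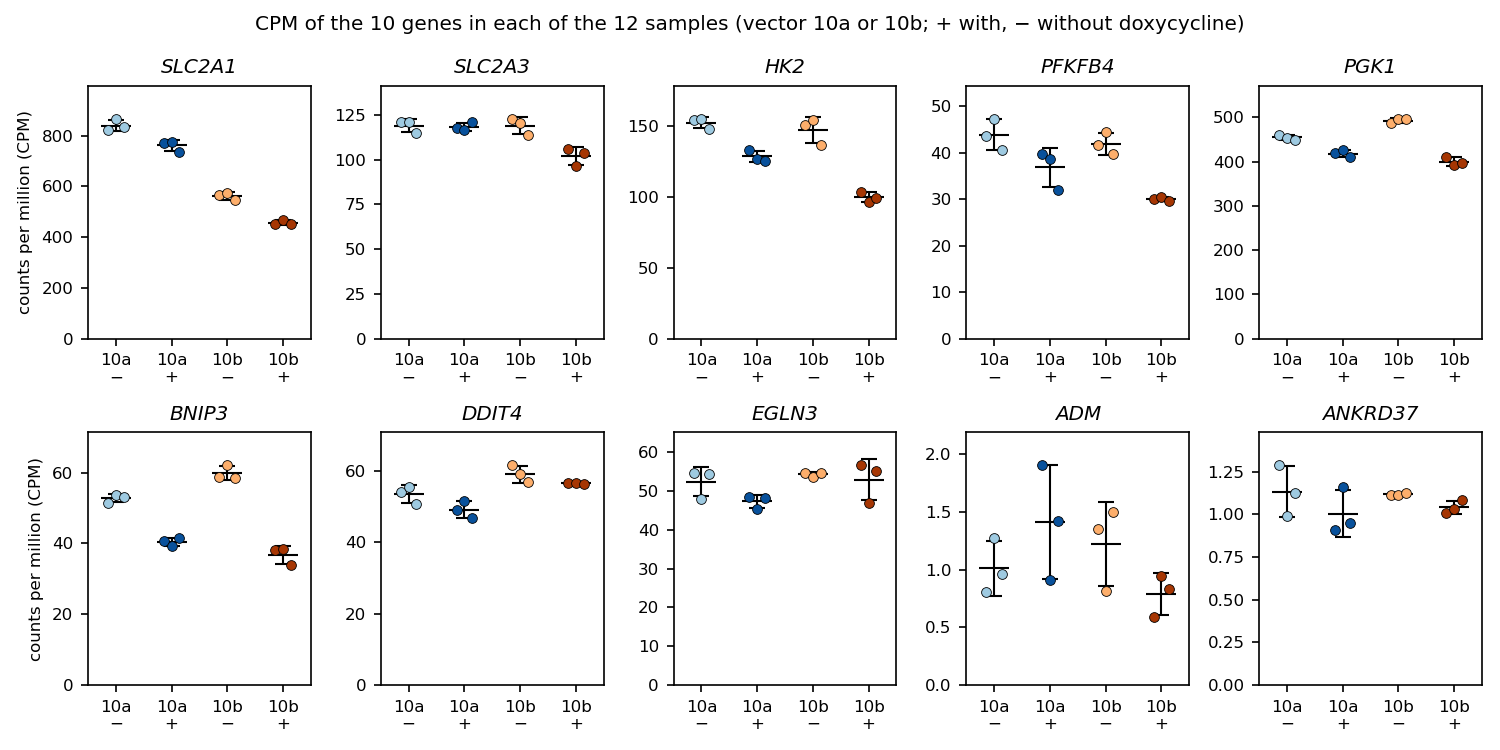
CPM of each of the 10 genes (vertical axes start at 0) in the 12 samples by vector and doxycycline (− controls, + doxycycline). Points are samples and bars are the mean ± SD of 3; BNIP3 went from 52.7 to 40.4 CPM with miR-10a and from 59.8 to 36.8 CPM with miR-10b.

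SLC2A1 encodes the glucose transporter GLUT1, which brings glucose into most cells, and it lies on chromosome 1 (GRCh37, chr1:43391024-43424564, minus strand). With the miR-10b vector, SLC2A1 was at 453, 468 and 450 CPM in the doxycycline samples and at 565, 574 and 547 CPM in the controls. With the miR-10a vector, it was at 772, 776 and 737 CPM with doxycycline and at 822, 866 and 832 CPM without. Doxycycline samples lay below all controls of their vector, and every miR-10b sample lay below every miR-10a sample. SLC2A1 fell by 18.7% with miR-10b (log2 fold change -0.30 ± 0.03 SE, adjusted p = 1.06e-08, edgeR's quasi-likelihood test) and fell by 9.29% with miR-10a (-0.14 ± 0.03, adjusted p = 0.00993). The miR-10a call was lost without replicate 3 of the doxycycline samples (adjusted p = 0.11) or replicate 2 of the controls (adjusted p = 0.0952).

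SLC2A3 encodes the neuronal glucose transporter GLUT3 (chr12:8071826-8171603, minus strand). With miR-10b, SLC2A3 was at 106, 96.4 and 104 CPM with doxycycline and at 123, 121 and 114 CPM in the controls, with no overlap. With miR-10a, it was at 118, 117 and 121 CPM with doxycycline and at 121, 121 and 115 CPM in the controls, and the groups overlapped. It fell by 14.4% with miR-10b (log2 fold change -0.22 ± 0.04 SE, adjusted p = 0.000289), and with miR-10a the log2 fold change was -0.01 ± 0.04 (adjusted p = 0.965). SLC2A3 shares most of its sequence with SLC2A14, which has 6 transcripts and 0 counts in all samples, so reads that both genes hold may be missing from its count.

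HK2 encodes hexokinase, which traps glucose in the cell in the opening step of glycolysis (chr2:75061254-75120486, plus strand). HK2 was at 103, 96.1 and 99.4 CPM with doxycycline and at 150, 154 and 137 CPM in the controls of the miR-10b vector. In the miR-10a samples it was at 133, 127 and 126 CPM with doxycycline and at 154, 155 and 148 CPM without. The controls of both vectors were at like levels and the doxycycline samples were lower, those of miR-10b the lowest of all. HK2 fell by 32.2% with miR-10b (log2 fold change -0.56 ± 0.04 SE, adjusted p = 9.89e-12) and by 15.7% with miR-10a (-0.25 ± 0.04, adjusted p = 0.000764).

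PFKFB4, a bifunctional enzyme that sets the level of an activator of phosphofructokinase (chr3:48555117-48599448, minus strand), was the gene with the 8mer shown above. PFKFB4 was at 30.04, 30.5 and 29.5 CPM with doxycycline and at 41.6, 44.5 and 39.8 CPM in the controls of the miR-10b vector. In the miR-10a samples it was at 39.8, 38.7 and 32.0 CPM with doxycycline and at 43.7, 47.3 and 40.6 CPM without, again with no overlap. It fell by 28.5% with miR-10b (log2 fold change -0.48 ± 0.07 SE, adjusted p = 6.30e-06), and with miR-10a the log2 fold change was -0.25 ± 0.07 (adjusted p = 0.0670). The miR-10a value passed the threshold in 1 of the 12 fits that left out 1 sample. That was the fit without replicate 2 of the miR-10b doxycycline group (adjusted p = 0.0228), which enters through the shared estimate of the spread. The value also passed in a fit of the miR-10a samples alone (0.0250), without a filter on counts (0.0204) and with the replicate number as a block (0.0267). It moved to -0.16 without replicate 3 of miR10a doxy, the sample at 32.0 CPM, and was between -0.31 and -0.16 in all fits that left out 1 sample. Exons of PFKFB4 and UCN2 overlap on the same strand.

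PGK1 encodes phosphoglycerate kinase, an ATP-forming enzyme of glycolysis on the X chromosome (chrX:77166236-77384792, plus strand). PGK1 was at 411, 393 and 396 CPM with doxycycline and at 486, 496 and 496 CPM in the controls of the miR-10b vector. In the miR-10a samples it was at 419, 425 and 410 CPM with doxycycline and at 460, 453 and 450 CPM without, so the groups did not overlap for either vector. PGK1 fell by 18.8% with miR-10b (log2 fold change -0.30 ± 0.03 SE, adjusted p = 3.73e-09) and fell by 7.98% with miR-10a (-0.12 ± 0.03, adjusted p = 0.0419). The miR-10a call was lost when any one of the miR-10a samples or replicate 2 of the miR-10b controls was left out (adjusted p = 0.0600 to 0.224), and with counts thinned to equal totals (adjusted p = 0.0512). Exons annotated to PGK1 and ATP7A overlap on the same strand.

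BNIP3, a mitochondrial outer membrane protein that directs mitochondria to autophagy under low oxygen (chr10:133781188-133795471, minus strand), had the lowest log2 fold change of the 10 genes with each vector. BNIP3 was at 38.03, 38.4 and 33.9 CPM with doxycycline and at 58.9, 62.0 and 58.4 CPM in the controls of the miR-10b vector. In the miR-10a samples it was at 40.7, 39.2 and 41.4 CPM with doxycycline and at 51.4, 53.7 and 53.0 CPM without. All 6 doxycycline samples lay below all 6 controls. BNIP3 fell by 38.5% with miR-10b (log2 fold change -0.70 ± 0.06 SE, adjusted p = 1.43e-11) and by 23.3% with miR-10a (-0.38 ± 0.06, adjusted p = 7.15e-05).

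DDIT4, an inhibitor of the growth kinase complex mTORC1 that rises in hypoxia and in the integrated stress response (chr10:74033678-74035794, plus strand), did not pass the test with either vector. DDIT4 was at 56.3 to 56.6 CPM with doxycycline and at 56.7 to 61.5 CPM in the controls of the miR-10b vector, and at 46.8 to 51.4 and 50.8 to 55.5 CPM in the miR-10a samples. The miR-10b groups lay next to each other without overlap and the miR-10a groups overlapped, with log2 fold changes of -0.06 ± 0.05 SE (adjusted p = 0.473) and -0.12 ± 0.06 (adjusted p = 0.383).

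EGLN3, the prolyl hydroxylase PHD3 that is itself raised by HIF (chr14:34393433-34931980, minus strand), was at 56.5, 46.8 and 55.2 CPM with doxycycline and at 54.7, 53.5 and 54.7 CPM in the miR-10b controls. In the miR-10a samples it was at 45.3 to 48.4 CPM with doxycycline and at 48.0 to 54.6 CPM without, and both pairs of groups overlapped. The log2 fold change was -0.04 ± 0.06 SE (adjusted p = 0.751) with miR-10b and -0.14 ± 0.06 (adjusted p = 0.363) with miR-10a. Without replicate 2 of the miR-10b doxycycline group, the sample at 46.8 CPM, the miR-10b value turned to 0.04.

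ADM, the precursor of the vasodilator peptide adrenomedullin (chr11:10326620-10328944, plus strand), and ANKRD37, an ankyrin repeat protein induced by HIF (chr4:186317175-186321782, plus strand), were near the limit of detection. ADM had 7 to 21 counts per sample (0.589 to 1.90 CPM) and log2 fold changes of -0.62 ± 0.34 SE (adjusted p = 0.240) with miR-10b and 0.45 ± 0.32 (adjusted p = 0.654) with miR-10a. ANKRD37 had 10 to 16 counts per sample (0.906 to 1.29 CPM) and log2 fold changes of -0.10 ± 0.29 (adjusted p = 0.884) and -0.16 ± 0.29 (adjusted p = 0.920). No change was detectable at this depth for these genes. Exons of ANKRD37 overlap UFSP2 on the opposite strand, and whether counting used strand is not given in the sources used here.

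**Figure D2:**
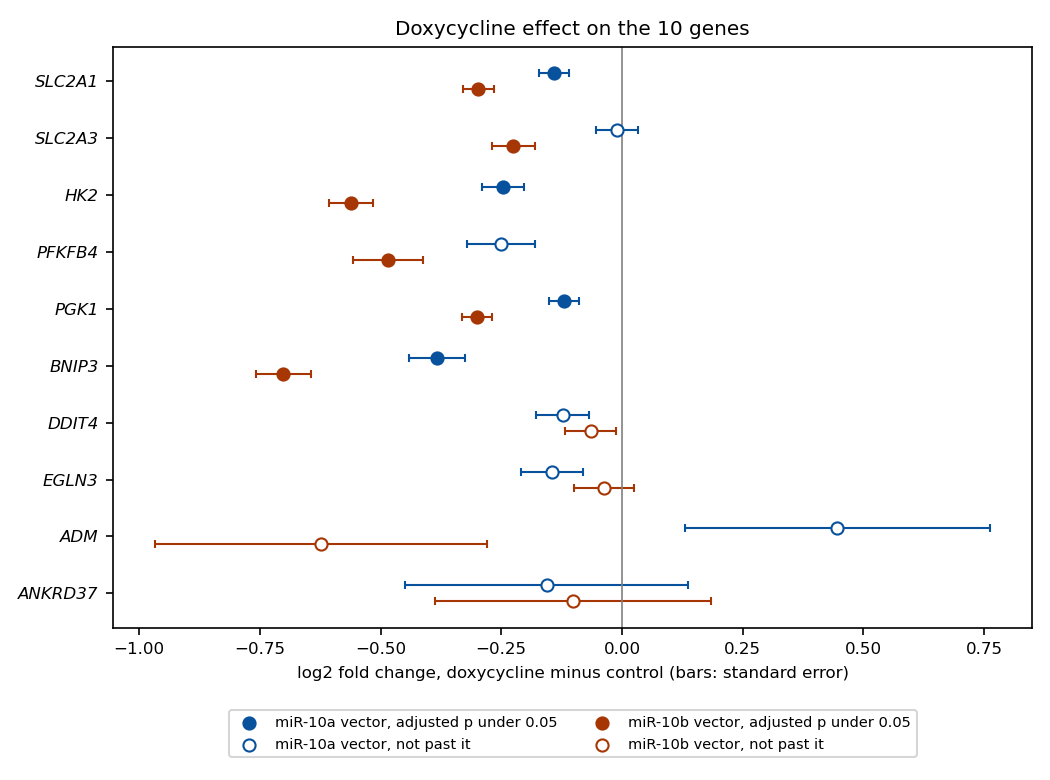
Log2 fold change (horizontal axis, doxycycline minus control, bars are standard errors) of the 10 genes with the miR-10a (blue) and miR-10b (brown) vectors. Filled points passed an adjusted p of 0.05 (6 for miR-10b, 4 for miR-10a), and ADM and ANKRD37 have the widest bars.

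Taken per sample, every doxycycline sample lay below every control for 8 of the 10 genes with miR-10b (not for ADM and EGLN3), where this held for 12.3% of all tested genes. Of these 8, DDIT4 and ANKRD37 did not pass edgeR's test with miR-10b. Their gaps were narrow, at most 56.6 against at least 56.7 CPM and at most 13 against at least 14 counts. With miR-10a every doxycycline sample lay below every control for 5 genes (SLC2A1, HK2, PFKFB4, PGK1 and BNIP3), where this held for 7.75%. The exact permutation test of 3 against 3 samples cannot go below p = 0.1, the value these genes reached. When both effects were averaged, the same 6 genes as with miR-10b fell, where 6.22% of all tested genes did, and PFKFB4 fell by 22.5% (adjusted p = 1.50e-06).

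The fall was larger with miR-10b than with miR-10a for 3 of the 10 genes by a test of the difference itself, where 1.38% of all tested genes were lower with miR-10b by that test. The difference of log2 fold changes was -0.32 ± 0.06 SE for HK2 (adjusted p = 0.00262), -0.18 ± 0.04 for PGK1 (adjusted p = 0.0183) and -0.32 ± 0.08 for BNIP3 (adjusted p = 0.0294). For SLC2A1 it was -0.16 ± 0.04 (adjusted p = 0.0584) and for SLC2A3 -0.21 ± 0.06 (adjusted p = 0.0611), and both passed under trimmed-mean (TMM) normalization, which made 5 genes. HK2 kept its call in all 12 fits that left out 1 sample. PGK1 lost it without replicates 1 or 2 of miR10a doxy, 3 of miR10a NOdoxy, or 2 or 3 of miR10b NOdoxy (adjusted p = 0.0508 to 0.0696), and BNIP3 without replicates 1 or 3 of miR10a doxy, 1 or 3 of miR10a NOdoxy, 3 of miR10b doxy or 2 of miR10b NOdoxy (adjusted p = 0.0543 to 0.0903). The level of the induced precursor also differed between the vectors, at 724 ± 10.8 CPM for MIR10A and 2619 ± 67.5 CPM for MIR10B, and its part in the result was not tested.

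The transduced cells also differed without doxycycline. Comparing the 3 miR-10b controls with the 3 miR-10a controls, SLC2A1 was lower by a log2 fold change of -0.58 ± 0.03 SE (562 ± 13.9 against 840 ± 23.1 CPM, adjusted p = 6.51e-17). PGK1 was higher by 0.12 ± 0.03 (493 ± 5.62 against 454 ± 5.40 CPM, adjusted p = 0.00636) and BNIP3 by 0.18 ± 0.05 (59.8 ± 1.94 against 52.7 ± 1.14 CPM, adjusted p = 0.0152). These 3 of 10 stand beside 14.1% of all tested genes that differed in either direction, and vector and transduced culture cannot be told apart here. The gap in SLC2A1 between the controls was larger than its response to doxycycline with either vector, and the same controls enter all of these comparisons. BNIP3 lost this call without replicate 1 of the miR-10a controls (adjusted p = 0.0777) or replicate 2 of the miR-10b controls (adjusted p = 0.0983).

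Levels can be set beside each other only per length of transcript. In the miR-10a controls, SLC2A1 was highest at 229 ± 6.30 CPM per kilobase, followed by PGK1 at 188 ± 2.23. BNIP3 (34.3 ± 0.74), DDIT4 (30.5 ± 1.37) and SLC2A3 (30.3 ± 0.87) came next, of which DDIT4 and SLC2A3 did not differ beyond their spread. HK2 (21.5 ± 0.54), EGLN3 (19.2 ± 1.38) and PFKFB4 (12.6 ± 0.96) followed, with ANKRD37 at 1.21 ± 0.16 and ADM at 0.636 ± 0.15 CPM per kilobase. With the miR-10b vector PGK1 was above SLC2A1 in the controls (203 ± 2.32 and 153 ± 3.78 CPM per kilobase) as well as in the doxycycline samples (165 ± 4.05 and 125 ± 2.58).

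Promoters are shown for 5 genes to set the hypoxia response core beside the changes. BNIP3, HK2 and PGK1 fell and hold ACGTG. SLC2A1 fell and holds 1 GCGTG but no ACGTG, and EGLN3 passed no test and lacks both cores. The windows run from 250 bases before to 50 after a RefSeq start (GRCh38.p14, chr10:131981874-131982173, minus strand, chr2:74833877-74834176, plus strand, for the first of its starts, chrX:78103998-78104297, plus strand, chr1:42958819-42959118, minus strand, and chr14:33951025-33951324, minus strand). Capitals mark ACGTG on either strand (CACGT where it lies on the other strand), and GCGTG is not marked. In BNIP3 the capitals are the palindrome CACGTG, read once on each strand.
BNIP3: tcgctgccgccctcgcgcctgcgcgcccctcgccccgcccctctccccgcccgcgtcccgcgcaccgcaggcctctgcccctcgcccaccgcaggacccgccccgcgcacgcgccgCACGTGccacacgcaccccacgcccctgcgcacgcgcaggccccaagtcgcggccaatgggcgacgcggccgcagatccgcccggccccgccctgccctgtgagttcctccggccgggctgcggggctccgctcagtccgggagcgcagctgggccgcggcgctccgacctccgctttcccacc
HK2: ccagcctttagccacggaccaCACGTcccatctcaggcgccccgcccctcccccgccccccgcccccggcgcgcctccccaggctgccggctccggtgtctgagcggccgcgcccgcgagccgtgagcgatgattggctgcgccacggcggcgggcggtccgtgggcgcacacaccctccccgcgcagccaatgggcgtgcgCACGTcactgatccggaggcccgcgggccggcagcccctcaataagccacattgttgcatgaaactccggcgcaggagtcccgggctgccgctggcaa
PGK1: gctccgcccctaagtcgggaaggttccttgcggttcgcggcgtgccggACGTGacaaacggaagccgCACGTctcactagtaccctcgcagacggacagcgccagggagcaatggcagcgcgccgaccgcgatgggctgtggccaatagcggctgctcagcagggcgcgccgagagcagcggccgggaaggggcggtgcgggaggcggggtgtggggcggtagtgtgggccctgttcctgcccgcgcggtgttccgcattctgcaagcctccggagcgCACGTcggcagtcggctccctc
SLC2A1: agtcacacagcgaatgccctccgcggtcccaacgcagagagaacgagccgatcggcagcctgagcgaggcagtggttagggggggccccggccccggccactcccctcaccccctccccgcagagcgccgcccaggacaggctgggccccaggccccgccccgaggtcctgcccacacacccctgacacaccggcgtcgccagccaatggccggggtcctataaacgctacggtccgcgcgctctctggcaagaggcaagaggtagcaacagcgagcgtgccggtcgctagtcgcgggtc
EGLN3: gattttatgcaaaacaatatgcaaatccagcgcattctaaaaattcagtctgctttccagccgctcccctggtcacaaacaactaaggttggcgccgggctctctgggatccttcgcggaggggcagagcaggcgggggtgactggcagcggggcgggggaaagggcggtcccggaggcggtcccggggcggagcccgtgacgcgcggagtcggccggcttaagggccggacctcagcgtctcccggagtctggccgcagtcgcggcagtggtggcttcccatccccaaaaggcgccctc
Of the 9 genes with an entry, 5 held ACGTG (HK2, PGK1, BNIP3, DDIT4 and ANKRD37), where 25.2% of the promoters of tested genes did and 21.4% of all promoters. With GCGTG added, 8 of 9 held a core, where 60.3% of the promoters of tested genes did and 48.4% of all. Both genes that fell and genes that passed no test, DDIT4 and ANKRD37, were among the 5 with ACGTG. PFKFB4 fell with miR-10b and holds 1 GCGTG but no ACGTG. Its window and those of DDIT4, ANKRD37 and ADM are not printed. A match is a description of these letters only.

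**Figure D3:**
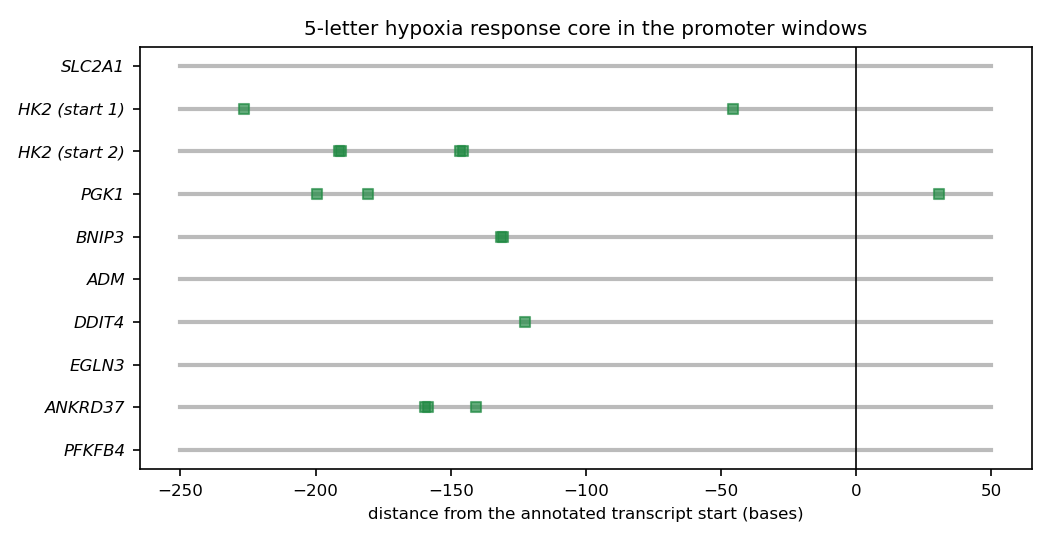
Position of each ACGTG match (green squares, either strand) relative to the annotated transcript start (0 on the horizontal axis, in bases) in the 300-base promoter windows of the 9 genes with an entry; HK2 has 2 starts. SLC2A1, ADM, EGLN3 and PFKFB4 hold no ACGTG, and overlapping squares are palindromes counted on both strands. GCGTG is not drawn, and SLC2A1, ADM and PFKFB4 hold 1 each.

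Other genes of the pathway were taken from 6 lists of 107 genes, of which 61 could be tested. The list of other hypoxia targets had 21 tested members, of which 9 fell and none rose with miR-10b and none passed edgeR's test with miR-10a, beside 7.15% lower and 8.18% higher over all tested genes with miR-10b and 0.742% and 0.472% with miR-10a. At an unadjusted p under 0.05, 10 were lower and 2 higher with miR-10b and 5 lower and none higher with miR-10a, and DESeq2 called 8 lower with miR-10b and none with miR-10a. Of all 11451 tested genes, 1375 were lower and 1786 higher with miR-10b and 580 and 698 with miR-10a at an unadjusted p under 0.05, and DESeq2 called 10.2% of its genes lower with miR-10b. Its median log2 fold change was -0.16 with miR-10b and -0.03 with miR-10a. The strongest fall of these with miR-10b was that of BHLHE40, a transcriptional repressor linked to the circadian clock (-0.86 ± 0.25 SE, adjusted p = 0.0161). BHLHE40 had 9 to 46 counts and lost its call without replicate 1 of miR10b doxy (adjusted p = 0.0537) or replicate 1 of miR10b NOdoxy (adjusted p = 0.138).

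STC2, a secreted glycoprotein (-0.58), TMEM45A, a membrane protein (-0.47), FAM162A, a mitochondrial protein (-0.42), INSIG2, which retains the sterol sensor in the endoplasmic reticulum (-0.26), and PLOD1, a collagen lysyl hydroxylase (-0.23), also fell with miR-10b. So did BNIP3L, the closest relative of BNIP3 (-0.20 ± 0.03, adjusted p = 8.60e-05), ERO1L, an oxidase of the endoplasmic reticulum (-0.16), and GBE1, the glycogen branching enzyme (-0.14). Without replicate 2 of miR10b doxy, INSIG2 (adjusted p = 0.116), ERO1L (0.0638) and GBE1 (0.160) lost their calls. GBE1 also lost its call without replicate 1 of miR10b doxy, replicates 2 or 3 of miR10b NOdoxy, replicate 1 of miR10a doxy, or replicates 1 or 3 of miR10a NOdoxy (adjusted p = 0.0517 to 0.207).

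The effect differed between the vectors for FAM162A (difference -0.42 ± 0.11 SE, adjusted p = 0.0242). It was the 1 of 21 tested hypoxia targets past that test, where 1.38% of all tested genes were lower with miR-10b. Without doxycycline, 6 of the 21 tested hypoxia targets were higher in the miR-10b than in the miR-10a controls and none was lower. BHLHE40 was among the 6, higher by 1.26 ± 0.26 on the log2 scale. Over all tested genes, 14.1% differed in either direction and 7.41% were higher. At an unadjusted p under 0.05, 9 of the 21 were higher and none lower. By that rule, 1378 of all 11451 tested genes were higher and 1481 lower. DESeq2 called 5 of the 21 higher and none lower, and 6.58% of its genes higher and 5.1% lower.

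Among the other glycolytic enzymes, 12 of 17 were tested, of which 2 fell with miR-10b (7.15% of all tested genes) and 1 with miR-10a (0.742% of all). ENO1, the enolase of most tissues, has 2 transcripts, so reads that both hold may be missing from its count. It was at 164, 151 and 144 CPM with doxycycline and at 192, 198 and 197 CPM in the miR-10b controls. In the miR-10a samples ENO1 was at 168, 171 and 164 CPM with doxycycline and at 194, 186 and 186 CPM without, and neither pair of groups overlapped. It fell by 21.96% with miR-10b (-0.36 ± 0.04 SE, adjusted p = 2.98e-08) and by 11.2% with miR-10a (-0.17 ± 0.04, adjusted p = 0.0203). PGAM1, a phosphoglycerate mutase, fell with miR-10b (-0.16 ± 0.04, adjusted p = 0.00603), but not without replicate 3 of miR10b doxy (adjusted p = 0.0562). ENO2, with 1 transcript and 2728 to 3729 counts, had log2 fold changes of 0.02 ± 0.03 with miR-10b (adjusted p = 0.829) and 0.01 ± 0.03 with miR-10a (0.942). ALDOC, also with 1 transcript, had -0.33 ± 0.12 (adjusted p = 0.0575) and -0.18 ± 0.12 (0.616). Of the 12, 5 had positive and 7 negative values with miR-10b, and 6 and 6 with miR-10a. GAPDH, with 4 transcripts, had 35 to 66 counts on its best transcript and LDHA, with 6, had 75 to 109, and genes with several transcripts like these are poorly measured here.

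Of 12 HIF subunits and regulators, 7 were tested, and with miR-10b 2 rose and none fell (edgeR), where 8.18% of all tested genes rose and 7.15% fell. At an unadjusted p under 0.05, 2 were higher and 1 lower, and DESeq2 called 1 higher. With miR-10a none passed, adjusted or not, in either tool. HIF1AN, the asparaginyl hydroxylase that blocks HIF activity, was at 281, 280 and 278 CPM with doxycycline and at 260, 252 and 254 CPM in the miR-10b controls (0.13 ± 0.03 SE, adjusted p = 0.00431). EP300, a coactivator, rose by 0.10 ± 0.03 (adjusted p = 0.0389), a call that was lost under TMM normalization (adjusted p = 0.0920). It was also lost without replicate 2 of miR10b doxy (0.207), any one of the miR10b NOdoxy samples (0.0598 to 0.166), replicate 1 of miR10a doxy (0.0534) or replicate 1 of miR10a NOdoxy (0.0513). EGLN1, the main prolyl hydroxylase, had -0.09 ± 0.04 (adjusted p = 0.124) and VHL 0.11 ± 0.11 (adjusted p = 0.566) with miR-10b.

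HIF1A had at most 5 counts on 1 of its 3 transcripts, ARNT at most 2 on 1 of its 5, EGLN2 at most 5 on 1 of 2 and EPAS1 5 to 14 on its only transcript. For the genes with several transcripts this count says nothing of the level of the gene. ARNT2, of the same list and with 1 transcript, had 4145 to 5741 counts. Its log2 fold changes were 0.03 ± 0.03 SE with miR-10b (edgeR, adjusted p = 0.629) and 0.01 ± 0.03 with miR-10a (adjusted p = 0.977). None of the 5 tested genes of lactate export and pyruvate dehydrogenase control and none of the 7 of mTORC1 restraint and the integrated stress response passed edgeR's test or DESeq2's with either vector. At an unadjusted p under 0.05, 1 of the former was lower with miR-10a, and of the latter 1 was higher and 1 lower with miR-10b. Among paralogues and partners of the 10 genes, 1 of 9 fell with miR-10b, near the 7.15% of all tested genes, SLC2A10 (-0.28 ± 0.09 SE, adjusted p = 0.0266), and it lost this call without replicates 1 or 2 of miR10b doxy or of miR10b NOdoxy (adjusted p = 0.0885 to 0.111).

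**Figure D4:**
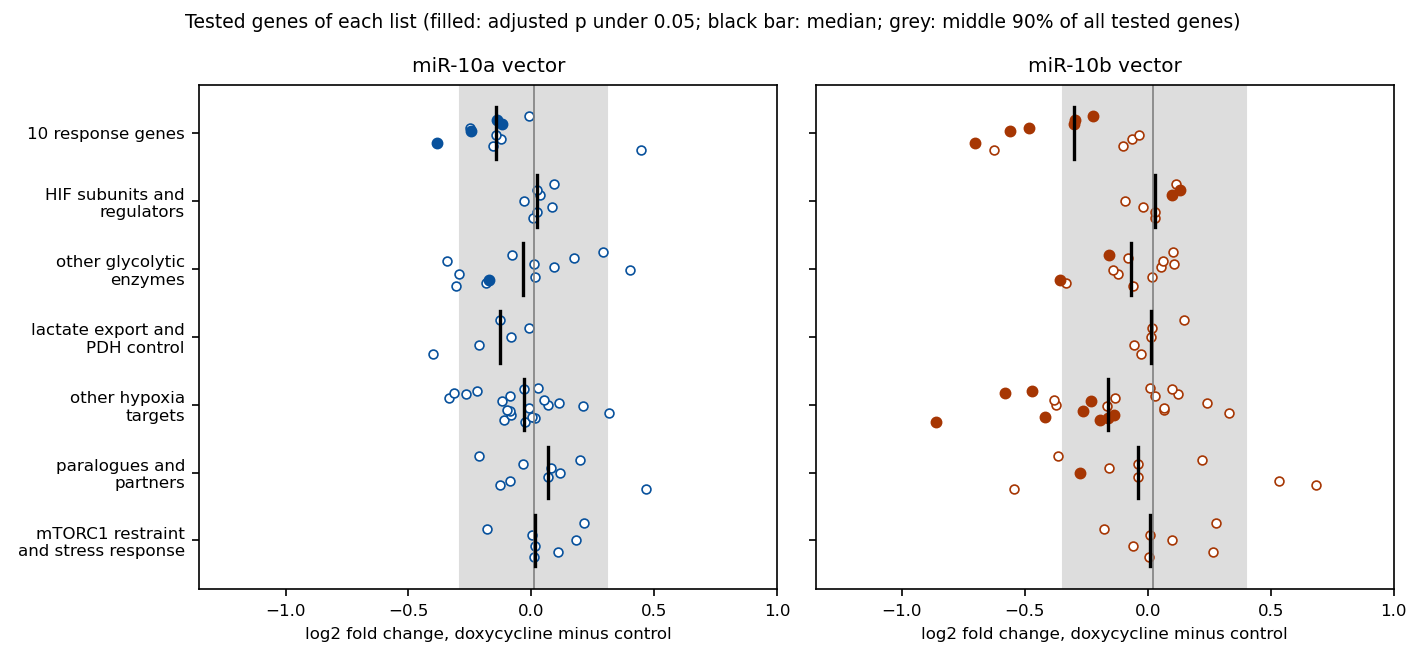
Log2 fold change (horizontal axes, doxycycline minus control) of every tested gene of the 10 response genes and of 6 pathway lists with the miR-10a (left) and miR-10b (right) vectors; PDH is pyruvate dehydrogenase. Filled points passed an adjusted p of 0.05, black bars are medians and grey bands hold the middle 90% of all tested genes; the 10 response genes and the other hypoxia targets have medians of -0.30 and -0.16 with miR-10b.

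Some cell type markers also changed with miR-10b, where 7.15% of all tested genes fell and 8.18% rose. The 5 fibroblast and mesenchyme markers summed to 346 to 365 CPM in the miR-10b controls, 287 to 309 CPM with doxycycline and 139 to 159 CPM in all miR-10a samples, with COL1A1 and COL3A1, 2 of 4 tested, lower with miR-10b and DCN at 0 or 1 count. The 5 neuron markers summed to 553 to 579 CPM in the miR-10b controls and 593 to 619 CPM with doxycycline. Nearly all of this sum was INA (554 ± 14.7 and 591 ± 13.6 CPM, SD, n = 3). INA was the 1 of 3 tested that was higher, a call that DESeq2 did not make. Of 9 neural progenitor markers 4 fell and 1 rose with miR-10b, MSI1, which DESeq2 did not call either, and the list summed to 14123 to 14252 CPM in the controls and 13566 to 13668 CPM with doxycycline. The floor plate gene CORIN fell by 0.77 on the log2 scale, 1 of 6 tested genes of the ventral midbrain list to pass, whose sum was 1346 to 1370 and 1297 to 1356 CPM, with LMX1B at 0. The pluripotency list, with NANOG at 0, summed to 105 to 110 and 102 to 112 CPM with miR-10b and to 140 to 155 CPM in all miR-10a samples, nearly all from DPPA4, and the 4 mesendoderm markers summed to at most 0.556 CPM in any sample. With miR-10a no marker passed edgeR's test or DESeq2's, and at an unadjusted p under 0.05, 3 neural progenitor markers and 1 ventral midbrain marker were lower and 1 fibroblast marker was higher. Between the controls, edgeR called 4 of the 9 neural progenitor markers higher with miR-10b and 2 lower, SOX1 (log2 fold change -1.23) and SOX3 (-0.76). It called 4 of 6 tested ventral midbrain markers higher, among them CORIN (1.61), all 4 tested fibroblast markers higher and DPPA4 lower. None of the 3 tested neuron markers was called. Over all tested genes 7.41% were higher and 6.72% lower. LMX1B (3 transcripts), OTX2 (7, with 2 to 10 counts), NANOG (2) and DCN (6) were poorly measured, as genes with several transcripts are here. The same holds for T (2) and EOMES (3) of the mesendoderm list, and low counts of these genes do not show absence. The part of the cell type markers in the result was not tested.

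The tested genes closest to each gene that fell, by the mean absolute difference of mean-centred log2 CPM over the 12 samples, were PTPRZ1 (0.0511) and PAPPA (0.0553) for SLC2A1, CCDC71L (0.0272) and KBTBD11 (0.0296) for SLC2A3 and SMARCD2 (0.0468) and KIAA1644 (0.0482) for HK2. For PFKFB4 they were CMBL (0.0661) and CECR6 (0.0692), for PGK1 ANXA5 (0.0296) and WWC2 (0.0301), and for BNIP3 WNT1 (0.0670) and LGALSL (0.0771). For scale, the mean absolute deviation of the gene itself was 0.265 for BNIP3 and 0.0838 for SLC2A3. WNT1 had log2 fold changes of -0.65 with miR-10b and -0.45 with miR-10a, beside -0.70 and -0.38 for BNIP3. As WNT1 was picked for its likeness over these same samples, like fold changes follow from the choice and are a description only.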

How the data were processed

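Messenger RNA was sequenced in 12 samples. According to the methods, RNA was extracted with the RNeasy Mini Kit and libraries were made with the NuGEN Ovation RNA-Seq System after poly-A enrichment, while the miRNeasy mini kit and kits of Illumina are given in the labels. The submitters' processing notes name STAR, featureCounts, Subread and hg19 without versions. The authors deposited raw counts per RefSeq transcript, 1 table per sample, not normalized, beside the transcript's length. Of 51799 rows, 3698 repeated a transcript with the same counts and were dropped, and the transcript with the highest mean count stood for its gene. Genes with 1 transcript held 92.8% of the counts.

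Counts of the 11451 genes with a mean above 10 were tested with edgeR 4.0.16 (R 4.3.3) by its quasi-likelihood test, with the total count as library size, 4 group means in 1 fit and Benjamini-Hochberg adjustment over all tested genes at 0.05. Contrasts were doxycycline minus control per vector, their mean, their difference, and the controls of both vectors. The code was tested on simulated data. Single genes were compared by the two-sided exact permutation test on CPM. Alternatives were TMM factors, DESeq2 1.42.0, no filter, a mean above 50 counts, the replicate number as a block, each vector alone, counts summed over transcripts, counts thinned to equal totals and leaving out each sample. Genes named are the 10, the precursors and the pathway genes past the threshold with a vector. The 2 genes nearest to each of the 10 that fell are also named. HIF1A, EPAS1, ARNT, EGLN1, EGLN2, VHL and HIF1AN are named whatever their values. Other genes (markers, ARNT2, ALDOC, ENO2, GAPDH, LDHA and overlapping genes) were named after their values were seen. The 10 genes and all lists were chosen with earlier results of these data known, and 1 listed gene is not reported here. The floor of 3 counts covers counting error only.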

Additional observations from a re-analysis of the deposited data

Results flagged for a closer look

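The effect of doxycycline differed between the vectors, by a test of the difference itself (edgeR, adjusted p under 0.05), for 3 of the 10 genes and 1 of the 21 tested hypoxia targets. By that test, 1.38% of all tested genes were lower with miR-10b. The log2 fold change with miR-10b minus that with miR-10a was -0.32 for HK2, -0.18 for PGK1 and -0.32 for BNIP3, which fell with both vectors. It was -0.42 for FAM162A, whose value with miR-10a was 0.0030 (adjusted p = 0.995). The controls of FAM162A were at 24.8 ± 0.25 CPM with miR-10b and 22.4 ± 0.76 CPM with miR-10a (SD, n = 3). Between the controls, PGK1 and BNIP3 were higher with miR-10b by 0.12 and 0.18 on the log2 scale (edgeR, adjusted p = 0.00636 and 0.0152). For HK2 the value was -0.05 (adjusted p = 0.511). Groups of 3 were too small for a search for single deviating samples.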

How the results depend on the processing

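Of the 10 genes, the 6 that fell with miR-10b and the 6 over both vectors kept that number in every leave-one-out fit. With miR-10a the number was 2 to 5 (4 in all samples), 2 without replicate 3 of miR10a doxy or replicate 2 of miR10a NOdoxy, and the calls over all genes were 75 to 268, or 275 from the samples of the vector alone. For the difference of effects the number of the 10 was 5 with TMM factors, without a filter or with the replicate block, and 1 to 4 in leave-one-out fits, 1 without replicate 1 of miR10a doxy, 3 of miR10a NOdoxy or 2 of miR10b NOdoxy. Calls over all genes for the difference were 343 without a filter and 140 to 339 in leave-one-out fits. Over all tested genes, the deviations of same-numbered samples were not correlated (r from -0.032 to 0.0055). Counting error of genes with few counts can hide a shared origin, so this cannot show whether a replicate number marks one. With the replicate block the 10 genes gave 5 calls with miR-10a in edgeR (PFKFB4 added, adjusted p = 0.0267) and 6 with miR-10b. The block gave 6 over both, 5 for the difference and 3 between controls.

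Signs turned for genes near 0 when 1 sample was left out: SLC2A3 with miR-10a (-0.033 to 0.0025), EGLN3 with miR-10b (-0.089 to 0.042), ADM over both (-0.228 to 0.038), ANKRD37 for the difference (-0.044 to 0.177), and between controls SLC2A3 (-0.024 to 0.032), EGLN3 (-0.0058 to 0.087) and ANKRD37 (-0.107 to 0.087). Between controls, SLC2A3 also turned with TMM factors (0.0065) and DESeq2 (0.0057), and ANKRD37 with thinned counts (0.040). The causes were not tested. Over all alternatives, values of single genes stayed on their side of 0 and of the threshold in 1141 cases, lost a call in 52, gained one in 18 and turned in 17. Depth limits ADM and ANKRD37, and genes with several transcripts were measured poorly. No fit of a vector alone exists for comparisons across vectors.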
